A study of Mus musculus with 2 samples.

Results

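Receptors through which nutrients, gut hormones, norepinephrine and neighboring endocrine cells act on the islet were followed in single cells of WT mice and GKO mice, which lack ghrelin, a stomach and islet hormone. They were 3 receptors of the incretin and glucagon family (Glp1r, Gipr, Gcgr), 3 receptors for fatty acids and lipid amides (Ffar1, Ffar4, Gpr119), the α2A adrenergic receptor Adra2a, and 2 somatostatin receptors (Sstr2, Sstr3), taken by symbol from the 27998 genes counted, and all 9 had UMIs (unique molecular identifiers, each standing for 1 captured RNA molecule). The mice were 8-week-old C57BL/6N littermates fed standard chow. The WT animals carried intact ghrelin, and the GKO animals were homozygous for a germline deletion of the ghrelin gene. Islets of 4 mice were pooled per genotype, live single cells were sorted, and 1 droplet-based library of transcript 3′ ends was made from each pool, so that animals cannot be told apart and no difference between genotypes has a replicate check.

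The WT library held 7792 barcodes (droplets called as cells) with 158067110 UMIs, and the GKO library 7289 barcodes with 103511757 UMIs, and 18 barcode sequences occurred in both. Ghrl, the deleted gene, had 43634 UMIs in WT and 280 in GKO. After filtering, 7100 WT and 6346 GKO barcodes remained. A barcode was placed in the class of the hormone that led its UMIs, if that hormone made up at least 10% of them: insulin (β), glucagon (α), somatostatin (δ) or pancreatic polypeptide (γ). There were 2265 β barcodes in WT and 872 in GKO, 1048 and 1397 α barcodes, 1414 and 1003 δ barcodes, 717 and 669 γ barcodes, and 1656 and 2405 nonendocrine barcodes with no hormone at that level. The glucose transporter gene Slc2a2, a β cell marker not used for placing barcodes, stood at 265 and 268 counts per 1000000 UMIs (CPM) in the β classes and at 5 CPM or less in the other hormone classes, and Hhex, a δ cell regulator, at 211 and 224 CPM in the δ classes. Irx2, an α cell regulator, was higher in WT α barcodes (89.8 CPM) than in WT γ barcodes (19.4 CPM). Mafa, a β cell regulator, was nearly absent at 2.21 and 4.24 CPM.

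All 9 genes encode G protein-coupled receptors. Receptors for the incretins, for glucagon and for lipid amides couple to Gs and raise cAMP, which strengthens glucose-driven insulin release, whereas long-chain fatty acids act on FFAR1 through Gq and calcium. ADRA2A and the somatostatin receptors couple to Gi, lower cAMP and restrain hormone release: norepinephrine from sympathetic nerves uses the former, and somatostatin from δ cells the latter.

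RefSeq gave the sequence upstream of the annotated start for 8 of the 9 genes (build GRCm38.p6). As many of these receptors act on cAMP, the 250 bases before each start were searched on both strands for TGACGTCA, the full cAMP response element, and for TGACG, its 5′ part. They were also searched for the E box, spelled CANNTG, for the TATA box in the form TATAAA, for the homeodomain core that reads TAATTA, and for the GC box, which is GGGCGG. TGACGTCA occurred in 1.55% of 32851 promoters of the same length and, among these genes, in Sstr2 only, where it also counts as a TGACG match. TGACG occurred in 17.8% of all promoters and in those of Sstr2, Sstr3, Adra2a and Gpr119. These 4 are printed because they hold the match, 5′ to 3′ on the gene's strand and ending at the base before the start, with the matched letters in capitals. They span chr11:113619077-113619326 (+ strand), chr15:78544346-78544595 (- strand, the upstream of 2 annotated Sstr3 starts), chr19:54045009-54045258 (+ strand) and chrX:48674479-48674728 (- strand). The starts used are those of RefSeq, while the gene spans given below come from GENCODE. In GENCODE Sstr3 and Adra2a start further upstream, so that the windows of both lie within those spans.
Sstr2: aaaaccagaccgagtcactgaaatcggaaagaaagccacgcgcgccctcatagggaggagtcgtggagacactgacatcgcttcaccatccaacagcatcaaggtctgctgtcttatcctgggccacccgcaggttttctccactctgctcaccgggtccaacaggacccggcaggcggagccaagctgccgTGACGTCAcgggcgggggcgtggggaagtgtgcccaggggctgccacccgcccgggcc
Sstr3: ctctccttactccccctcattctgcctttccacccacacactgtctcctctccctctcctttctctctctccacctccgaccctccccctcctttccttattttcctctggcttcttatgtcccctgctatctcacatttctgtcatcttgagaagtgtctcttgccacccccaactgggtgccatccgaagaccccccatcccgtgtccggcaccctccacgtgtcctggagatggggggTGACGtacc
Adra2a: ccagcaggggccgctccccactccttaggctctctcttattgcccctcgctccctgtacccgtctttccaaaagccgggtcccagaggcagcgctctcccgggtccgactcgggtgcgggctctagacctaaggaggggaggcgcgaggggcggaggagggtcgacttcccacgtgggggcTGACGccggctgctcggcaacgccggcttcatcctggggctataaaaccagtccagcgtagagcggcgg
Gpr119: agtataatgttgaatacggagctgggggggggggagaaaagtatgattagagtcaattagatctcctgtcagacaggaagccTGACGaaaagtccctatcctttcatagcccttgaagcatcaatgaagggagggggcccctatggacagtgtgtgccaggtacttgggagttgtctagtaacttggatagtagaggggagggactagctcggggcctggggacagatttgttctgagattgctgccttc
The Adra2a window also held TATAAA (12.4% of all promoters). E boxes were found for Ffar1, Sstr3, Glp1r and Adra2a (66.2% of all promoters), GC boxes for Sstr2, Gcgr, Glp1r, Ffar4 and Adra2a (32.7%), and TAATTA for none (4.84%). A match describes letters only. Of the 4 genes with TGACG, Sstr2 and Gpr119 had their highest hormone class level in α barcodes, Adra2a in β barcodes and Sstr3 in δ barcodes, as given next.

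The 9 genes fell into 3 patterns across hormone classes, which both libraries shared. Glp1r, Gipr, Gcgr, Ffar1 and Adra2a had their highest CPM in β barcodes, Gpr119 and Sstr2 in α barcodes, and Ffar4 and Sstr3 in δ barcodes. Because transcripts were counted by their 3′ ends and capture differs between genes, levels are compared between classes for 1 gene and not between genes. Ranges in square brackets after a level or a log2 ratio are exact Poisson 95% intervals, which cover counting error only.

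**Figure D1:**
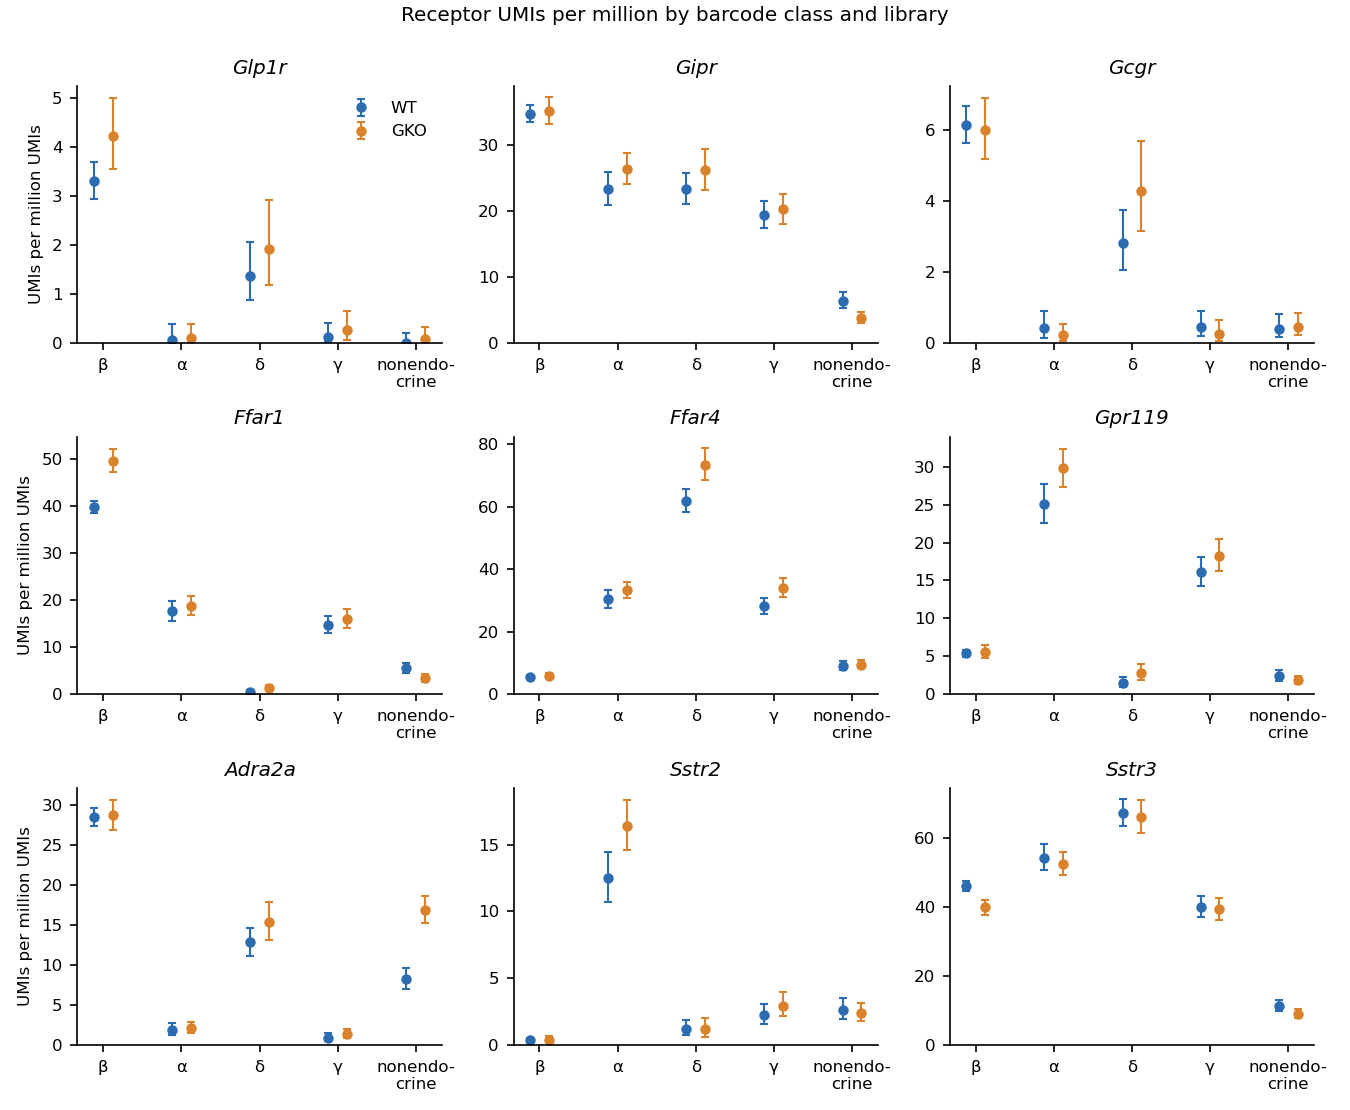
UMIs of each receptor per 1000000 UMIs (y axis, 1 panel per gene, axes differ) in β, α, δ, γ and nonendocrine barcodes (x axis) of the WT library (blue) and the GKO library (orange). Bars are 95% Poisson counting intervals. Ffar1 stood at 39.8 and 49.7 in β barcodes but at 0.36 and 1.18 in δ barcodes, and Ffar4 had the reverse order.

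Glp1r, the receptor for glucagon-like peptide 1 (chr17:30901817-30940791, + strand, GRCm38), was a β and δ transcript. It had 294 UMIs in WT β barcodes, or 3.30 CPM [2.94, 3.70], and 139 UMIs in GKO β barcodes, or 4.24 CPM [3.56, 5.00]. In δ barcodes it had 23 UMIs (1.38 CPM) in WT and 21 UMIs (1.91 CPM) in GKO. In α barcodes the counts were 1 and 2 UMIs, in γ barcodes 2 and 4, and in nonendocrine barcodes 0 and 2, where the floor of 3 counts that stands for a count of 0 is 0.17 CPM in WT. β barcodes stood above δ barcodes by a log2 ratio of 1.26 [0.65, 1.94] in WT and 1.15 [0.48, 1.88] in GKO, while α and γ barcodes were not distinguishable.

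Gipr encodes the receptor for glucose-dependent insulinotropic polypeptide (chr7:19156061-19166127, - strand) and was spread over all 4 hormone classes. It stood at 34.7 CPM in WT β barcodes, 23.2 in α, 23.3 in δ and 19.3 in γ barcodes. In GKO the same classes stood at 35.1, 26.4, 26.1 and 20.2 CPM. The class of highest level thus exceeded that of lowest level by less than for any other member except Sstr3. The step from β to the next class was 0.58 [0.42, 0.73] in WT and 0.41 [0.26, 0.57] in GKO on the log2 scale. Levels in α and δ barcodes were not distinguishable in either library (0.00 [-0.21, 0.22] in WT). Nonendocrine barcodes held 6.36 and 3.80 CPM.

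Gcgr, the glucagon receptor (chr11:120530699-120538986, + strand), followed Glp1r. It had 547 UMIs (6.14 CPM [5.64, 6.68]) in WT β barcodes and 197 UMIs (6.00 CPM [5.20, 6.90]) in GKO β barcodes. δ barcodes held 47 UMIs in each library, at 2.81 CPM in WT and 4.28 CPM in GKO. α barcodes, the source of its ligand, had 6 and 4 UMIs, and γ barcodes 8 and 4. The β level exceeded the δ level by a log2 ratio of 1.13 [0.70, 1.59] in WT and 0.49 [0.02, 0.98] in GKO. Gcgr overlaps the antisense gene Gm11789 by 1086 bases, and Gm11789 had 377 UMIs in all. The strand setting of the counting was not given in the sources used here, so that reads from the overlap cannot be assigned with certainty.

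Ffar1, the long-chain fatty acid receptor of β cells (chr7:30857390-30861564, - strand), was the member that separated δ barcodes from the rest most sharply. It had 3545 UMIs (39.8 CPM [38.5, 41.1]) in WT β barcodes and 1630 UMIs (49.7 CPM [47.3, 52.2]) in GKO β barcodes. α barcodes stood at 17.6 and 18.8 CPM and γ barcodes at 14.7 and 16.0 CPM. δ barcodes held 6 UMIs (0.36 CPM) in WT and 13 UMIs (1.18 CPM) in GKO, 4 of these in 1 barcode. Relative to δ barcodes, γ barcodes were higher by 5.35 [4.21, 6.81] in WT and 3.76 [2.96, 4.69] in GKO on the log2 scale. The δ level was 0.902% of the β level in WT and 2.38% in GKO. Insulin itself appeared in δ barcodes at 1.12% of its β level in WT and 1.05% in GKO, so that Ffar1 lay below that share in WT and above it in GKO.

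Ffar4, a second receptor for long-chain fatty acids (chr19:38097071-38114263, + strand), was highest where Ffar1 was lowest. δ barcodes held 1034 UMIs (61.9 CPM [58.2, 65.8]) in WT and 806 UMIs (73.4 CPM [68.4, 78.6]) in GKO. α barcodes stood at 30.3 and 33.3 CPM and γ barcodes at 28.2 and 34.0 CPM, and these were not distinguishable within either library. β barcodes were lowest at 5.51 and 5.79 CPM. Relative to α barcodes, the WT δ level was higher by 1.03 [0.87, 1.19], and relative to γ barcodes the GKO δ level was higher by 1.11 [0.95, 1.27], on the log2 scale.

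Gpr119, a receptor for oleoylethanolamide and related lipids (chrX:48667979-48674478, - strand), was an α and γ transcript. It had 363 UMIs (25.04 CPM [22.5, 27.8]) in WT α barcodes and 558 UMIs (29.8 CPM [27.4, 32.4]) in GKO α barcodes. γ barcodes stood at 16.1 and 18.3 CPM, β barcodes at 5.37 and 5.55 CPM, and δ barcodes at 1.50 CPM (25 UMIs) and 2.73 CPM (30 UMIs). The α level exceeded the γ level by 0.64 [0.41, 0.87] in WT and 0.71 [0.50, 0.92] in GKO on the log2 scale.

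Adra2a, the receptor through which norepinephrine blocks insulin release (chr19:54044151-54048982, + strand), shared the β and δ pattern of Glp1r and Gcgr. It had 2545 UMIs (28.6 CPM [27.5, 29.7]) in WT β barcodes and 944 UMIs (28.8 CPM [27.0, 30.7]) in GKO β barcodes. δ barcodes stood at 12.9 and 15.4 CPM, α barcodes at 1.93 and 2.08 CPM, and γ barcodes at 0.93 and 1.35 CPM. From δ to α barcodes the level dropped by a log2 ratio of 2.74 [2.16, 3.36] in WT and 2.89 [2.38, 3.43] in GKO. Nonendocrine barcodes held more Adra2a than α or γ barcodes, at 8.24 CPM in WT and 16.9 CPM in GKO, and are described separately.

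Sstr2, through which somatostatin restrains glucagon release (chr11:113619342-113626028, + strand), was an α transcript. It had 181 UMIs (12.5 CPM [10.7, 14.4]) in WT α barcodes and 307 UMIs (16.4 CPM [14.6, 18.3]) in GKO α barcodes. γ barcodes followed at 2.26 and 2.96 CPM, δ barcodes at 1.20 and 1.18 CPM, and β barcodes were lowest at 0.36 CPM (32 UMIs) and 0.40 CPM (13 UMIs). The α level exceeded the γ level by 2.47 in both libraries on the log2 scale, with intervals of [1.96, 3.00] and [2.02, 2.95]. The whole gene lies on the opposite strand within the span of Slc39a11, which had 2118 UMIs, so the same limit of strand applies.

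Sstr3, a somatostatin receptor found on primary cilia (chr15:78537008-78544685, - strand), was the most even of the 9. It stood at 67.3 CPM in WT δ barcodes, 54.4 in α, 46.2 in β and 40.1 in γ barcodes. In GKO the values were 66.2, 52.6, 40.0 and 39.3 CPM. The δ level exceeded the α level by 0.31 [0.18, 0.44] and 0.33 [0.19, 0.47] on the log2 scale, and in GKO the β and γ levels were not distinguishable (0.02 [-0.12, 0.16]).

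The hormones themselves take much of each barcode's RNA, and unequally: 7 hormone genes made up 65.7% and 63.7% of UMIs in β barcodes against 30.0% to 30.6% in α and δ barcodes and 49.0% and 47.9% in γ barcodes. Levels were therefore also given per 1000000 UMIs outside the hormone genes. On that scale β levels stand higher relative to α and δ levels, and the highest class stayed the same for 8 of the 9 members in both libraries. The exception was Sstr3, for which β barcodes became highest at 135 CPM in WT and 110 CPM in GKO, against 96.8 and 94.5 CPM in δ barcodes. Which class has most Sstr3 therefore rests on the choice of total. For Gpr119 the α and γ levels drew together on that scale, at 36.1 and 31.6 CPM in WT (log2 ratio 0.19 [-0.04, 0.42]) and 42.9 and 35.1 CPM in GKO (0.29 [0.08, 0.50]). Glp1r in β barcodes exceeded δ barcodes by 2.28 and 2.10, and Gcgr by 2.15 and 1.44, on the log2 scale.

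**Figure D2:**
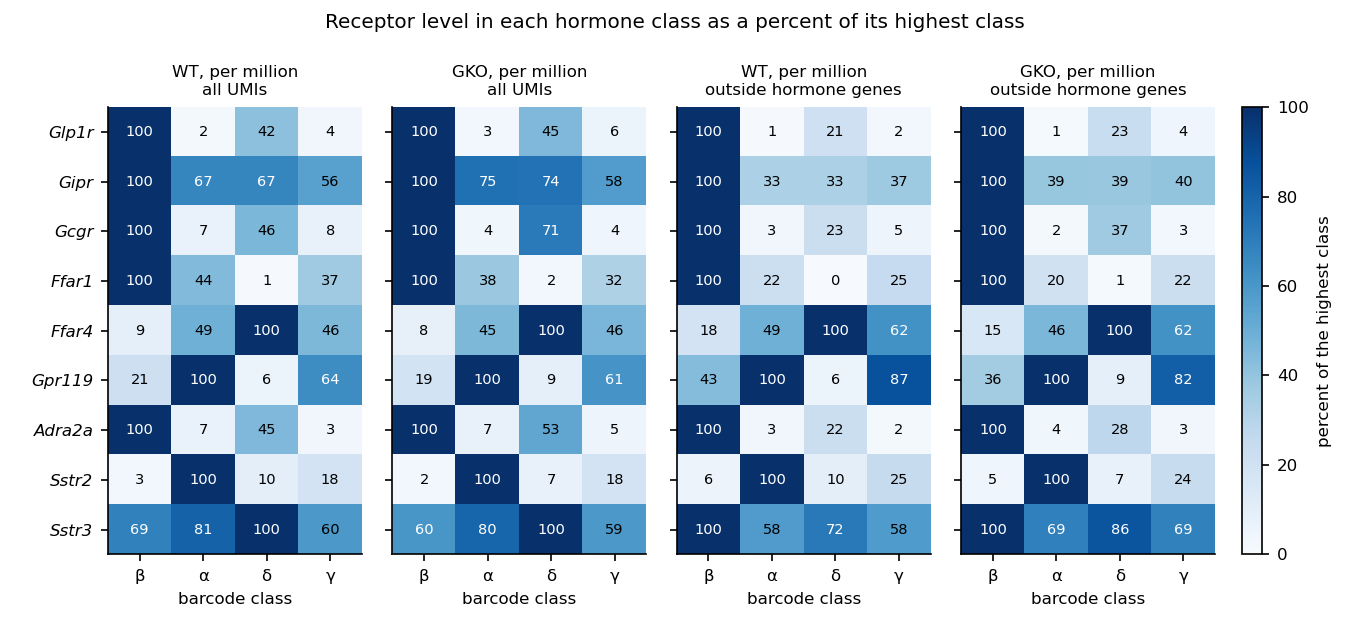
Level of each receptor (rows) in each hormone class (columns) as a percent of that gene's highest class in the same library, for WT and GKO, per 1000000 of all UMIs (left pair) and per 1000000 UMIs outside 7 hormone genes (right pair). Darker cells are closer to the highest class. The row of Sstr3 changes its highest class between the totals, from δ to β, and the other 8 rows do not.

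To compare shares of barcodes, each barcode was thinned at random to 5000 UMIs and shallower ones were left out. This kept nearly all hormone barcodes and 1303 of 1656 WT and 1865 of 2405 GKO nonendocrine barcodes. Depth is then equal over all UMIs but not outside the hormone genes. Those made up 65.7% and 63.7% of UMIs in β barcodes against 3.58% and 2.76% in nonendocrine barcodes, which lowers β shares relative to nonendocrine shares. Median depths before thinning ran from 37124 and 35811 UMIs in β barcodes to 8568 and 8053 UMIs in nonendocrine barcodes. Shares in nonendocrine barcodes are given for comparison and are not a background of free RNA alone. They include barcodes with 1% to 10% hormone and groups that held a receptor themselves. Barcodes with a hormone at 5% to 10% held Sstr3 at 63.1 CPM in WT and 61.8 CPM in GKO, within the range of the hormone classes. A subset chosen after seeing the data was the 1050 WT and 1654 GKO nonendocrine barcodes with every hormone under 1% of UMIs. Its shares are added for Gipr, Gcgr, Ffar1, Ffar4, Gpr119, Sstr2 and Sstr3. Exact (Clopper-Pearson) 95% intervals are given in brackets. Shares without thinning are much larger for β barcodes, for example 73.0% and 76.4% for Ffar1, because of their depth.

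At 5000 UMIs a UMI of Ffar1 was seen in 18.5% [16.9, 20.2] of WT and 21.8% [19.1, 24.7] of GKO β barcodes, in 8.20% and 9.55% of α barcodes, and in 0.07% and 0.40% of δ barcodes. The nonendocrine shares were 2.69% and 1.13%, or 1.05% and 0.36% where every hormone was under 1%, and the δ shares were below or near these. Ffar4 was seen in 26.1% [23.8, 28.4] and 28.1% [25.3, 31.0] of δ barcodes and in 3.41% and 2.53% of β barcodes, against 3.22% and 3.81% of nonendocrine barcodes. Where every hormone was under 1% the nonendocrine shares were 0.57% and 1.45%, and 0.58% and 0.94% without barcodes with Xcr1 or Clec9a, described further on. The β shares of Ffar4 (intervals [2.70, 4.24] and [1.59, 3.80]) lay above these, so whether they pass the background rests on the barcodes used for it. Gpr119 was seen in 11.8% and 12.9% of α barcodes, 9.50% and 8.40% of γ barcodes, and 2.83% and 3.10% of β barcodes, the last above 1.15% and 0.64% in nonendocrine barcodes. Its δ share of 0.57% [0.25, 1.13] in WT was below the nonendocrine share and above the 0.19% of barcodes with every hormone under 1%, and its δ share in GKO (1.71% [1.00, 2.73]) was above both.

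Glp1r and Gcgr were thinly detected: 1.82% [1.31, 2.46] and 2.07% [1.23, 3.25] of β barcodes had a Glp1r UMI and 3.37% and 3.21% a Gcgr UMI. Glp1r was seen in none of the nonendocrine barcodes, for which the floor of 3 counts is a share of 0.23% in WT and 0.16% in GKO. Gcgr was seen in 0.23% and 0.16% of them, or in 0.10% and 0.06% where every hormone was under 1%. δ barcodes had Glp1r in 0.86% and 1.11% and Gcgr in 0.86% [0.45, 1.50] and 2.62% [1.72, 3.82], above those shares in both libraries. Gipr was seen in 15.9% and 17.5% of β barcodes and in 9.31% to 12.6% of the other hormone classes, against 2.30% and 1.34% of nonendocrine barcodes. Its nonendocrine shares were 0.86% and 0.30% where every hormone was under 1%.

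Adra2a was seen in 12.6% and 15.2% of β barcodes and 6.51% and 7.16% of δ barcodes. In α barcodes (0.29% and 0.36%) and γ barcodes (0.28% and 0.60%) it was below the nonendocrine share of 3.61% and 5.74%. That share holds Adra2a of particular nonendocrine barcodes, described further on, and is for this gene not a background of free RNA. Sstr2 was seen in 6.85% [5.39, 8.56] and 7.74% [6.39, 9.28] of α barcodes, and in 0.98% and 1.20% of γ, 0.36% and 0.50% of δ and 0.13% and 0.11% of β barcodes, against nonendocrine shares of 1.61% and 0.54%. The nonendocrine shares include ductal-led barcodes, which held Sstr2, and where every hormone was under 1% they were 0.95% and 0.24%, or 0.31% and 0.06% without ductal-led barcodes. The γ shares ([0.39, 2.00] and [0.52, 2.35]) lay above the latter in both libraries. Sstr3 was seen in 16.6% to 27.9% of every hormone class and in 4.83% and 3.11% of nonendocrine barcodes. Its nonendocrine shares were 0.95% and 0.67% where every hormone was under 1%.

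β barcodes were deep enough to be thinned to 20000 UMIs, which kept 2078 in WT and 787 in GKO. At that depth Sstr3 was seen in 58.8% and 52.9% of them, Ffar1 in 53.1% and 59.2%, Gipr in 49.2% and 50.6%, and Adra2a in 42.8% and 41.9%. Gcgr was seen in 11.5% and 10.0%, Gpr119 in 9.82% and 10.7%, Ffar4 in 9.14% and 9.40%, Glp1r in 6.21% and 6.99%, and Sstr2 in 0.72% and 0.76%. A β barcode had a UMI of 2.41 ± 1.19 (SD over barcodes) of the 9 receptors in WT and 2.42 ± 1.19 in GKO, and 4.67% and 4.45% had none.

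Pairs of receptors occurred in the same β barcodes about as often as the product of their separate shares gives. Of pairs for which that product came to at least 20 barcodes, 24 in WT had an observed count of 0.82 to 1.13 times the product (median 1.02), and 22 in GKO 0.82 to 1.20 times (median 1.02). Glp1r and Gipr, the incretin receptors, were seen together in 65 WT barcodes, where the product gives 63.5, and in 30 GKO barcodes, where it gives 27.8. Ffar1 and Ffar4 were seen together in 85 WT barcodes against 101 by the product. These counts describe barcodes of 1 library each and no test was made of them.

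β barcodes differ in how much insulin they carry, and the receptors were described by that share per 1000000 UMIs outside the hormone genes. Ffar4 fell from 26.4 CPM in barcodes with 25% to 60% insulin to 4.94 CPM in those with over 60% in WT, and from 24.5 to 4.53 CPM in GKO. The log2 ratios were -2.42 [-2.79, -2.06] and -2.44 [-3.11, -1.82]. Sstr2 had 23 UMIs in the middle range and 2 above 60% in WT, and 11 and 0 in GKO. Both are genes of other hormone classes, and such barcodes can hold a second hormone as well. Without barcodes in which a second hormone made up at least 5% of UMIs, an alternative chosen after seeing the data, the Ffar4 ratios were -2.10 [-2.50, -1.72] and -1.99 [-2.70, -1.32], and Sstr2 had 12 and 2 UMIs in WT and 3 and 0 in GKO.

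Most β-high receptors went the other way, with higher levels in insulin-rich barcodes. Adra2a stood at 70.8 CPM in the middle range and 98.4 CPM above 60% insulin in WT (log2 ratio 0.47 [0.36, 0.59]) and at 69.3 and 95.2 CPM in GKO (0.46 [0.27, 0.65]). Ffar1 differed by 0.37 in both libraries, and Glp1r by 0.69 [0.34, 1.05] in WT and 0.45 [-0.06, 0.97] in GKO. Sstr3 differed by 0.28 and 0.18 and Gcgr by 0.35 and 0.23, of which the GKO interval of Gcgr includes 0. The intervals of Gipr (0.04 and 0.13) and Gpr119 (-0.12 and -0.40) included 0 in both libraries. Without barcodes rich in a second hormone the ratios of Adra2a, Ffar1, Glp1r, Sstr3 and Gcgr were smaller. Adra2a then differed by 0.37 [0.25, 0.50] in WT and 0.36 [0.15, 0.57] in GKO, and Ffar1 by 0.23 [0.13, 0.34] and 0.27 [0.12, 0.43]. Glp1r (0.46 [0.10, 0.84]) and Sstr3 (0.22 [0.12, 0.32]) left out 0 in WT, while in GKO their intervals, [-0.37, 0.70] and [-0.05, 0.30], included it. Gcgr had intervals that included 0 in both libraries (0.21 [-0.05, 0.48] and 0.07 [-0.37, 0.52]).

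**Figure D3:**
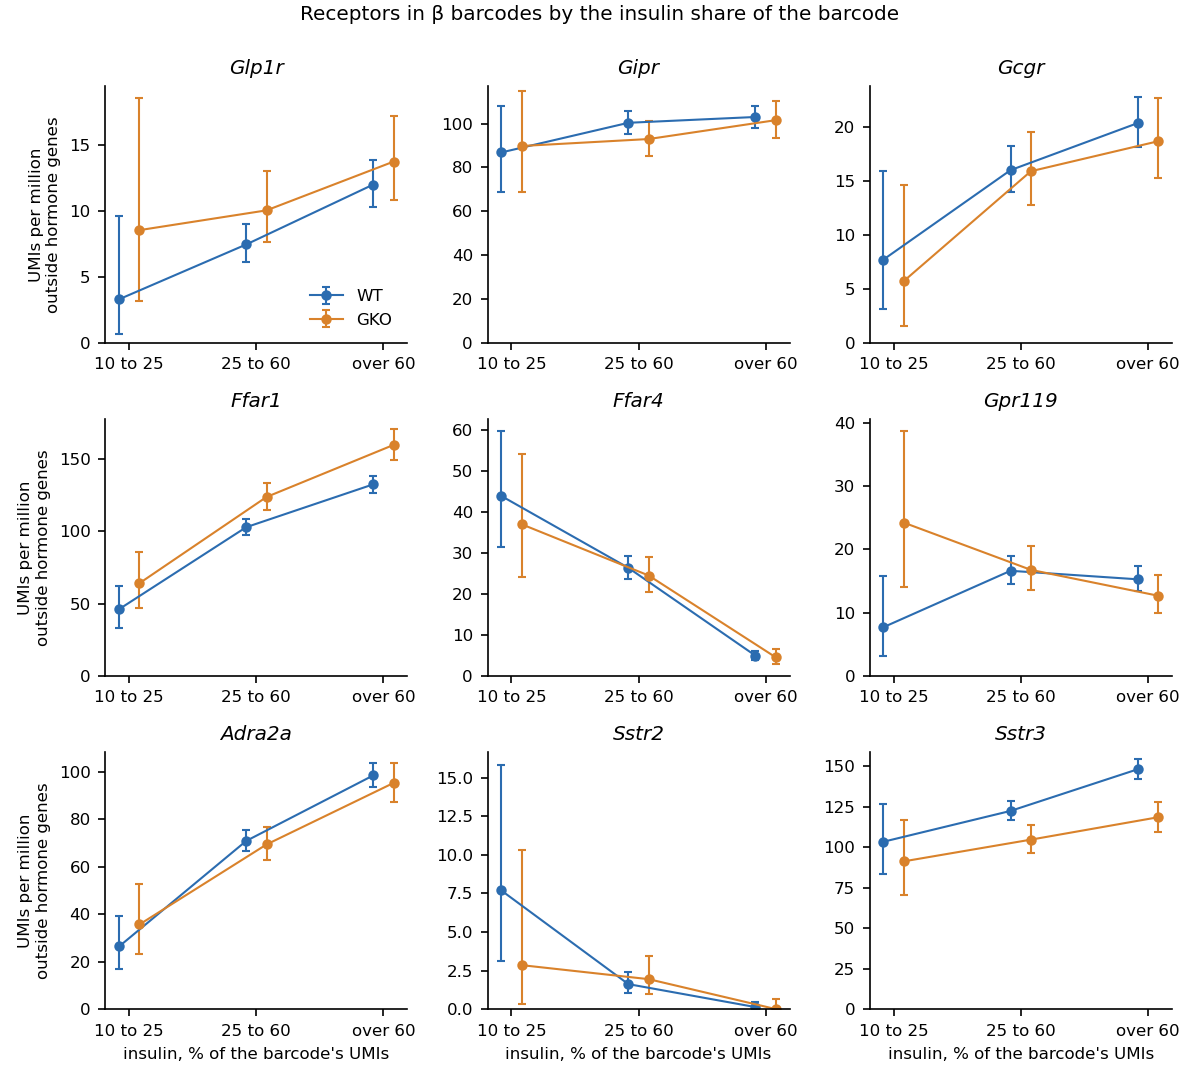
UMIs of each receptor per 1000000 UMIs outside hormone genes (y axis, 1 panel per gene, axes differ) in β barcodes with 10% to 25%, 25% to 60% and over 60% of their UMIs from insulin (x axis), for WT (blue) and GKO (orange), with 95% Poisson counting intervals. Ffar4 falls to 4.94 and 4.53 above 60% insulin, while Adra2a and Ffar1 rise. The lowest bin holds 53 WT and 37 GKO barcodes.

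Between genotypes, no receptor passed the fold used here in β, α or γ barcodes, and 2 did in δ barcodes. Of the 36 pairs of a receptor and a hormone class, 27 had at least 50 UMIs over both libraries, and in 22 of these the GKO level was higher and in 5 lower. Of all genes with that many UMIs, 67.8% were higher in GKO in β, 60.3% in α, 57.0% in δ and 62.5% in γ barcodes. Outside the hormone genes 18 pairs were higher and 9 lower, and in β barcodes 2 of 8 receptors were higher, where 50.7% of all genes were. A log2 ratio of GKO to WT of at least 0.5 in size was reached by 0 of 8 receptors in β barcodes, where 9.14% of all 13047 genes with that many UMIs reached it. It was reached by 0 of 7 in α barcodes (7.95% of all genes), 2 of 6 in δ barcodes (7.14%) and 0 of 6 in γ barcodes (7.02%). The median log2 ratio of the receptors, beside that of all genes, was 0.03 and 0.08 in β (-0.05 and 0.00 outside the hormone genes), 0.13 and 0.05 in α, 0.25 and 0.03 in δ, and 0.15 and 0.06 in γ barcodes. With 1 library per genotype there is no test, and the intervals cover counting error alone. Barcodes of a class are not replicates.

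Both receptors past that fold were scarce in δ barcodes. Gpr119 had 25 UMIs in WT and 30 in GKO (log2 ratio 0.87 [0.05, 1.70]), and Gcgr 47 in each (0.61 [-0.01, 1.22]). With a leading hormone of at least 25% of UMIs, Gpr119 kept 1 and 3 UMIs there. Ffar4, the main fatty acid receptor of δ barcodes, was higher in GKO by 0.25 [0.11, 0.38], Adra2a by 0.26 [-0.04, 0.56] and Gipr by 0.17 [-0.06, 0.39]. Sstr3 differed by -0.02 [-0.16, 0.11].

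In β barcodes the intervals of 3 receptors left out 0. Ffar1 was higher in GKO by 0.32 [0.23, 0.40], a ratio that 87.8% of all genes tested in that class lay below. Glp1r was higher by 0.36 [0.06, 0.66], and its interval outside the hormone genes included 0 [-0.02, 0.57]. Sstr3 was lower, with a log2 ratio of -0.21 [-0.30, -0.12] and 11.1% of genes below it. Gipr (0.02 [-0.08, 0.11]), Adra2a (0.01 [-0.10, 0.12]), Gcgr (-0.03 [-0.28, 0.20]), Ffar4 (0.07 [-0.18, 0.32]) and Gpr119 (0.05 [-0.21, 0.30]) had intervals that included 0.

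In α barcodes Sstr2 was higher in GKO by 0.39 [0.12, 0.67] and Gpr119 by 0.25 [0.06, 0.45], and Gipr (0.18 [-0.02, 0.39]), Ffar4 (0.13 [-0.05, 0.31]), Ffar1 and Sstr3 had intervals that included 0. In γ barcodes Ffar4 was higher by 0.27 [0.09, 0.45], and the other members' intervals included 0. In all, 8 of 27 intervals left out 0, 7 on the side of higher levels in GKO and 1 on the other. Of all genes, intervals on the higher side made up 27.9% in β, 16.7% in α, 13.8% in δ and 15.5% in γ barcodes, and on the lower side 6.89%, 8.67%, 9.13% and 6.32%.

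**Figure D4:**
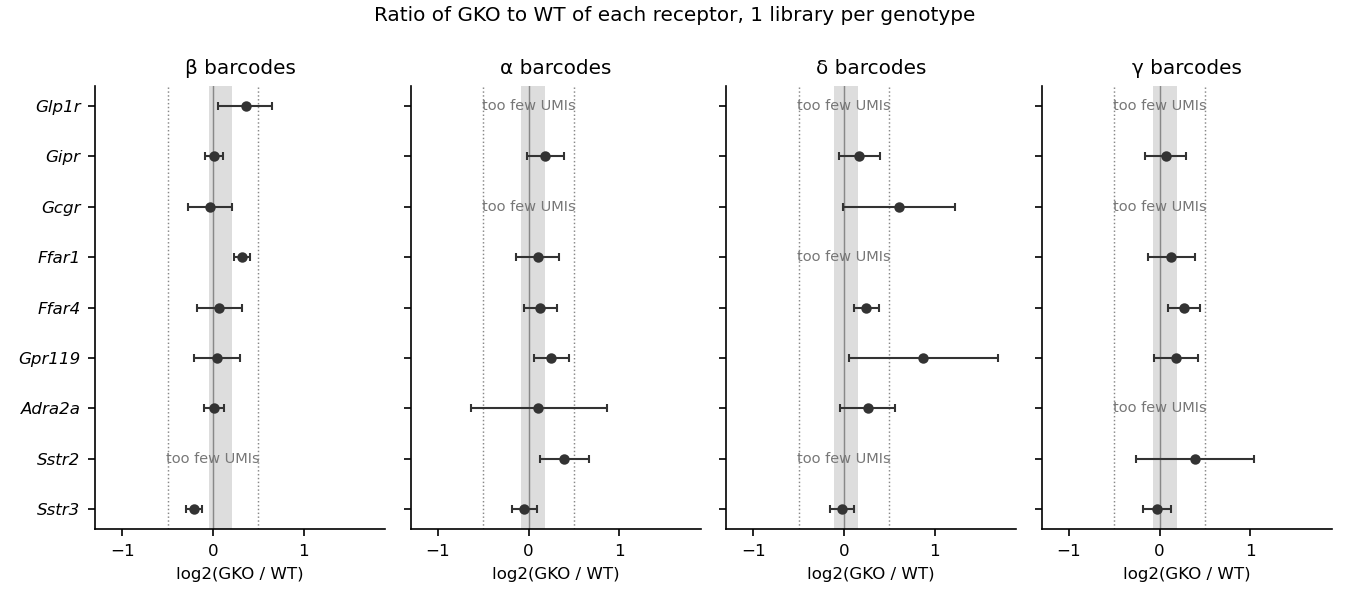
log2 ratio of GKO to WT (x axis) of each receptor (rows) in β, α, δ and γ barcodes (panels), per 1000000 UMIs, with 95% Poisson counting intervals and no replicates. The grey band spans the interquartile range of all genes with at least 50 UMIs in the class, dotted lines mark ±0.5, and receptors under 50 UMIs are not drawn. Ffar1 in β barcodes lies at 0.32 and Sstr3 at -0.21, and only Gcgr and Gpr119 in δ barcodes lie past 0.5.

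Nonendocrine barcodes include groups led by endothelial, stellate, immune and ductal markers, and many barcodes also carry some hormone RNA. There 3 of 7 receptors passed the fold, against 19.3% of all genes. Adra2a was higher in GKO by 1.04 [0.76, 1.32], and Gipr and Ffar1 were lower, with log2 ratios of -0.74 [-1.17, -0.32] and -0.71 [-1.17, -0.25]. For Gipr most UMIs came from barcodes in which a hormone made up 5% to 10% of UMIs, 71 of 112 in WT and 54 of 83 in GKO, and such barcodes numbered 161 and 149. The same held for Sstr3 (149 of 201 and 135 of 198 UMIs) Ffar4 (106 of 157 and 121 of 206) and Ffar1 (55 of 96 and 43 of 73). The nonendocrine levels of these 4 genes thus moved with the hormone share of the barcodes. In the barcodes with 5% to 10% hormone the interval of the log2 ratio of GKO to WT included 0 for all 4. The ratios there were -0.28 [-0.82, 0.25] for Gipr and -0.24 [-0.85, 0.36] for Ffar1. They were -0.03 [-0.38, 0.32] for Sstr3 and 0.30 [-0.08, 0.69] for Ffar4. Where every hormone was under 1% of UMIs, Gipr had 20 UMIs in WT and 18 in GKO (log2 ratio -0.58 [-1.59, 0.41]), Sstr3 22 and 29 (-0.03 [-0.88, 0.84]), Ffar1 22 and 14 (-1.08 [-2.16, -0.05]) and Ffar4 31 and 72 (0.78 [0.16, 1.44]).

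Adra2a did not follow hormone. Among barcodes with every hormone under 1% of UMIs, it had 108 UMIs in 1272 WT barcodes and 313 UMIs in 1977 GKO barcodes (log2 ratio 1.10 [0.78, 1.43]). The barcodes were split by leading marker genes. Barcodes led by quiescent stellate markers held 41.9 CPM in WT (26 UMIs) and 42.1 CPM in GKO (44 UMIs, log2 ratio 0.01 [-0.72, 0.77]), and those led by activated stellate markers 13.0 CPM (34 UMIs) and 8.90 CPM (46 UMIs, -0.55 [-1.22, 0.14]). In neither of these did the interval leave out 0. Barcodes that no single list led, but that both stellate lists joined did, held 81.1 CPM (19 UMIs, 32 barcodes) and 169.5 CPM (157 UMIs, 128 barcodes, 1.06 [0.37, 1.83]). All of these together stood at 22.8 and 34.6 CPM (0.60 [0.23, 0.99]) and were split further by Rgs5, a gene of pericytes. Joining the stellate lists and the split by Rgs5 were chosen after its values were seen. Barcodes led by stellate markers with an Rgs5 UMI held Adra2a at 58.3 CPM in WT (73 UMIs, 183 barcodes) and 99.7 CPM in GKO (230 UMIs, 363 barcodes). Those without Rgs5 held 2.70 and 3.52 CPM, and endothelial-led barcodes 1.02 and 1.30 CPM.

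In the Rgs5 group 26.2% of WT and 29.8% of GKO barcodes had an Adra2a UMI, and GKO was higher by 0.77 [0.39, 1.17] on the log2 scale. The most UMIs in 1 barcode were 6 and 16, and without that barcode the levels were 55.8 and 93.0 CPM. Without the barcodes called stellate-led, nonendocrine Adra2a stood at 4.67 and 8.30 CPM (log2 ratio 0.83 [0.39, 1.28]). That set still holds all barcodes with 1% to 10% hormone, which were not sorted by markers and can include stellate cells. Those with 1% to 5% hormone held Adra2a at 9.76 CPM (16 UMIs) in WT and 29.3 CPM (38 UMIs) in GKO. In macrophage-led barcodes it stood at 3.88 CPM (9 UMIs) and 7.60 CPM (36 UMIs). The number of barcodes in each group also differs between the libraries, and a different mix of cells cannot be told apart from a different level per cell.

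Ffar4 was found in several groups of nonendocrine barcodes. Ductal-led barcodes held 18 UMIs in WT (13.2 CPM, 8 of the UMIs in 1 barcode) and 9 in GKO (5.85 CPM). Without the barcode of 8 UMIs the WT level was 7.52 CPM. A WT barcode with Ghrl at 10% or more of its UMIs, described at the end, also held 8 Ffar4 UMIs. No WT nonendocrine barcode held more than 8, and the 2 may be the same barcode. Krt18, a gene of the ductal list, also stood at 191 and 220 CPM in WT δ and γ barcodes, against 285 CPM in WT nonendocrine barcodes. Barcodes led neither by a single list nor by the joined stellate lists held 4 UMIs in WT (4.58 CPM) and 13 in GKO (11.96 CPM). Macrophage-led barcodes with a UMI of Xcr1 or Clec9a, genes of cross-presenting dendritic cells, held 3 UMIs in 24 WT barcodes (8.99 CPM) and 33 UMIs in 52 GKO barcodes (47.7 CPM). Macrophage-led barcodes with neither gene held 2 and 8 UMIs. The log2 ratio of GKO to WT in the former was 2.41 [0.73, 4.76] and rests on 3 WT UMIs, and this group too was chosen after values were seen. Sstr2 appeared in ductal-led barcodes at 10.3 CPM (14 UMIs in 13 of 73 barcodes) and 11.1 CPM (17 UMIs in 15 of 104). Endothelial-led barcodes had 0 Sstr2 UMIs in both libraries, and macrophage-led barcodes 2 in WT and 0 in GKO. Barcodes led neither by a single list nor by the joined stellate lists held Sstr2 at 2.29 CPM (2 UMIs) and 7.36 CPM (8 UMIs in 3 barcodes). Barcodes with a hormone at 5% to 10% held it at 8.05 and 8.24 CPM. Ductal-led barcodes also held Sstr3 at 10.3 and 9.76 CPM, Adra2a at 8.09 and 9.11 CPM and Gipr at 9.56 and 3.25 CPM. Ffar1 appeared in barcodes led by B cell markers at 9.43 CPM (9 UMIs) and 4.57 CPM (3 UMIs).

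**Figure D5:**
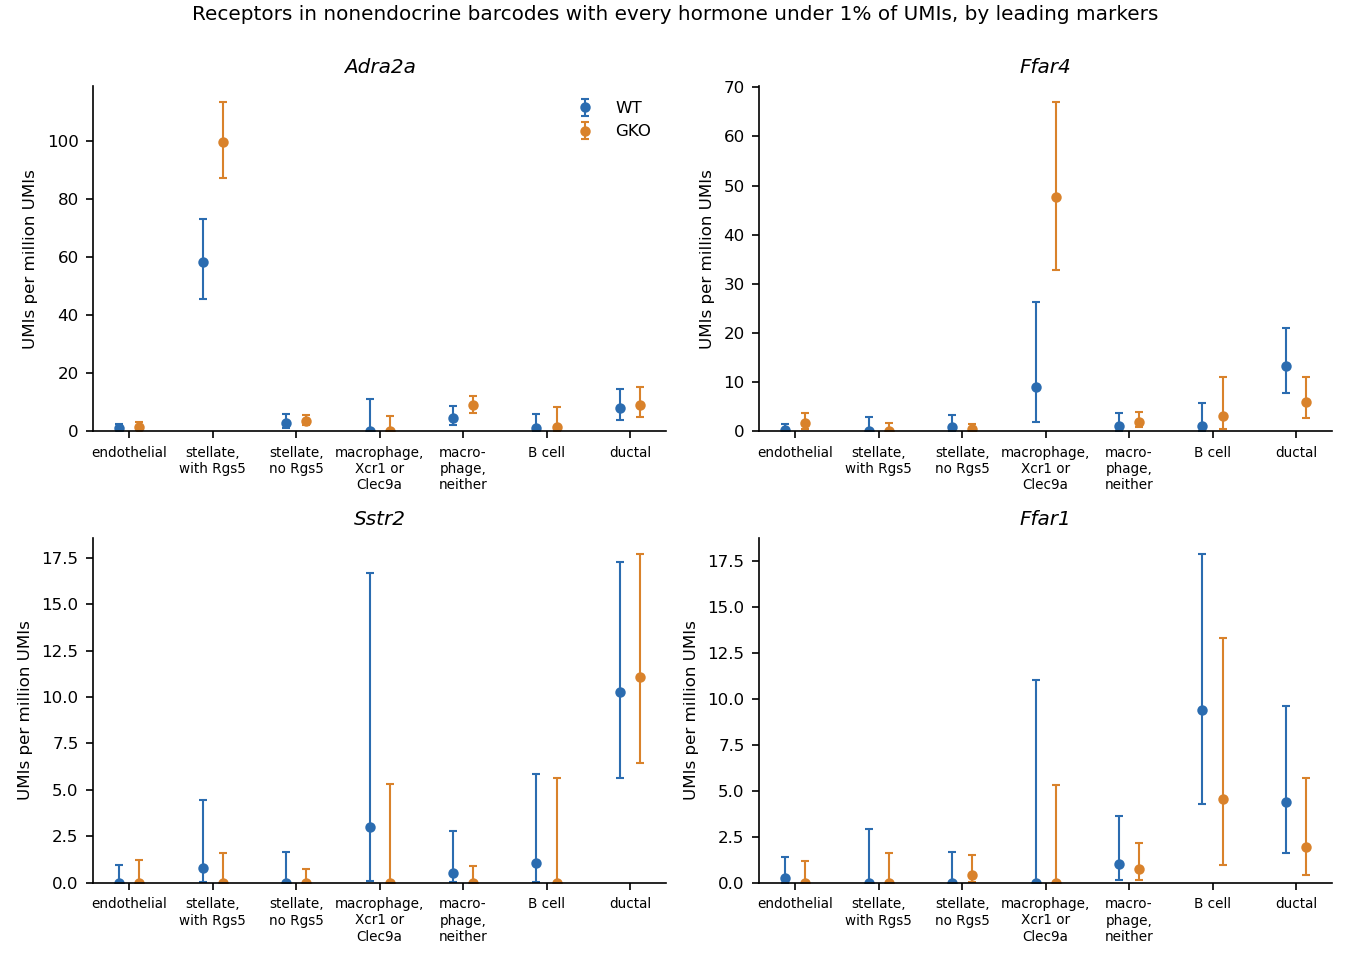
UMIs per 1000000 (y axis, axes differ) of Adra2a, Ffar4, Sstr2 and Ffar1 in barcodes with every hormone under 1% of UMIs, grouped by leading markers (x axis), for WT (blue) and GKO (orange), with 95% Poisson counting intervals. Adra2a stands at 58.3 and 99.7 in stellate-led barcodes with Rgs5 and at 3.52 or less in those without, and Ffar4 at 47.7 in GKO macrophage-led barcodes with Xcr1 or Clec9a.

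The reach of free RNA was gauged from the hormones. Insulin in the other hormone classes stood at 1.12% to 1.14% of its β level in WT and 0.81% to 1.05% in GKO, and Gcg in δ barcodes at 1.04% and 1.23% of its α level. Somatostatin in α barcodes was at 5.12% and 4.81% of its δ level, and Ppy in δ barcodes at 8.56% and 7.59% of its γ level, both above the share of insulin. Glp1r in δ barcodes stood at 41.7% and 45.1% of its β level, Gcgr at 45.8% and 71.3%, and Adra2a at 45.0% and 53.5%, each above those hormone shares. Glp1r in α barcodes (2.09% and 2.52%), Sstr2 in β barcodes (2.88% and 2.42% of the α level) and Ffar1 in δ barcodes (0.902% and 2.38%) ran from below the share of insulin to somewhat above it, and were below those of somatostatin in α and Ppy in δ barcodes. Gpr119 in δ barcodes stood at 5.97% and 9.17% of its α level. These shares lay above that of somatostatin in α barcodes, and below that of Ppy in δ barcodes in WT but above it in GKO.

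Each member was matched with the genes whose log2(CPM + 1) was most alike over 18 groups of barcodes, 9 per library, among 12349 genes, as a description with no p. Groups of 1 library share its depth. Glp1r was most like St8sia5 and Lgals12 (Pearson r 0.96 for both), Gcgr like Lgals12 (0.96) and Grin1 (0.94), and Ffar1 like Skap1 (0.95) and Cadps (0.94). Gipr was most like Ap3b2 and Akr1c12 (0.99 for both) and Sstr3 like Efcab1 and Mapk8ip2 (0.99 for both). Ffar4 was most like Bcl11a and Cacna1b (0.95 for both), Gpr119 like RP23-477O13.1 (0.94), and Sstr2 like Ugt8a (0.98) and AF529169 (0.94). Adra2a had the weakest matches, Ttyh2 (0.82) and 6330403K07Rik (0.79). Among the members, Gipr and Sstr3 (0.98) and Glp1r and Gcgr (0.94) were most alike.

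Other receptors of the same ligand classes put the 9 in context. Of 3 other somatostatin receptors only Sstr1 was measured to any extent, in δ barcodes at 7.78 and 8.74 CPM. Sstr5 had 3 UMIs and Sstr4 none in the hormone classes. As capture differs between genes, such counts do not show that a receptor is absent. Of the 3 other somatostatin receptors, 1 could be compared between genotypes, Sstr1 in δ barcodes, and it did not pass the fold. Of 17 other fatty acid, lipid and metabolite receptors, 3 of 8 with enough UMIs were higher in GKO past the fold and 1 lower in β barcodes, none of 5 in α, 1 of 4 was higher in δ and 2 of 3 were higher in γ barcodes. Of all genes, 9.14% passed the fold in either direction in β, 7.95% in α, 7.14% in δ and 7.02% in γ barcodes. Ffar2, a receptor for short-chain fatty acids, was among them: it stood at 23.6 CPM in WT and 46.6 CPM in GKO δ barcodes (log2 ratio 0.98 [0.79, 1.17]) and at 16.8 and 25.5 CPM in β barcodes (0.60 [0.48, 0.73]). Ffar3 (β 4.27 and 4.63 CPM) and Ptger3 (β 3.16 and 1.71 CPM) completed the 3 with most UMIs.

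Of 24 other peptide hormone receptors, 4 of 9 with enough UMIs were higher past the fold and 1 lower in β barcodes, 2 of 7 higher in α, and 0 of 4 and 0 of 5 in δ and γ barcodes. The shares of all genes past the fold were 9.14%, 7.95%, 7.14% and 7.02% in these classes, and no test was made of such counts. Oxtr, the oxytocin receptor, stood at 78.5 and 84.3 CPM in α barcodes, Vipr1 at 50.6 and 48.6 CPM there, and Galr1 at 18.05 and 20.5 CPM in β barcodes. Ghsr, the ghrelin receptor, was a δ transcript at 25.5 and 31.4 CPM (log2 ratio 0.30 [0.09, 0.51]). In β barcodes Ghsr was among the 4 higher past the fold, on 67 and 46 UMIs (0.90 [0.32, 1.46]). From its own cell type calls and ambient-corrected counts, the study reported unaltered islet Ghsr. Of the other adrenergic and muscarinic receptors, Chrm3 stood at 6.34 and 6.28 CPM in β barcodes. Adrb1, which raises cAMP, was highest in α barcodes (9.38 and 11.7 CPM), where the Gi-coupled Adra2a was nearly absent. Of 22 receptor kinases, arrestins, RAMPs and effectors, led by Prkar1a, Prkacb and Rapgef4, 1 of 21 was higher and 1 lower past the fold in β, 1 higher and 2 lower of 20 in α and in δ, and 3 of 18 lower in γ barcodes. The same shares of all genes apply to these counts.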

How the data were processed

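Islet cells of 1 pool of 4 mice per genotype were profiled by droplet-based RNA sequencing of transcript 3′ ends. The deposited values are UMI counts per gene and barcode, which the authors made with Cell Ranger 5.0.1 (build mm10 per the submitters' processing notes), without scaling and before their removal of ambient RNA. As in the study, barcodes under 500 genes or over 10% mitochondrial UMIs were left out. Classes follow the leading hormone (at least 10% of UMIs). The study's own cell type calls were not used here. No doublet caller was run, and barcodes with a second hormone at 5% or more were left out as an alternative. Nonendocrine groups were formed by leading marker lists, with at least 3 marker UMIs and 2 times the next list.

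UMIs were summed per class and divided by all UMIs of the class. Ratios carry exact conditional Poisson intervals, level intervals are exact Poisson and shares exact binomial, all at 95%, covering counting error only. A ratio needed 50 UMIs over both libraries, and a log2 ratio of 0.5 in size counted as past the fold. Scripts used Python 3.11.15, numpy 2.4.6, scipy 1.17.1 and pandas 2.3.3, with edgeR 4.0.16 for 1 alternative (TMM), and were tested on simulated data. Genes named were the 9 members, the 3 genes with most UMIs of each related list plus Ghsr, and the 2 genes most like each member, and some of the genes so chosen are not reported here. Members and lists were chosen with earlier results of these data known. Promoter sequences are from RefSeq (GRCm38.p6) and positions from GENCODE vM21 (GRCm38). The alternatives are given in the closing section.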

Additional observations from a re-analysis of the deposited data

Results flagged for a closer look

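The log2 ratio of GKO to WT of Ffar1 was 0.32 [0.23, 0.40] in β barcodes and -0.71 [-1.17, -0.25] in nonendocrine barcodes, 2 classes of the same libraries with intervals on opposite sides of 0. The difference between the classes was not tested. Ffar1 had 96 UMIs in WT and 73 in GKO nonendocrine barcodes, of which 55 and 43 lay in barcodes with a hormone at 5% to 10% of UMIs and 22 and 14 in those with every hormone under 1%. The log2 ratio was -0.24 [-0.85, 0.36] in the former, an interval that includes 0, and -1.08 [-2.16, -0.05] in the latter.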

How the results depend on the processing

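No paired analysis was possible because each genotype has 1 library, and for the same reason no replicate could be left out. The class with most Sstr3 turned with the total: the log2 ratio of δ to β barcodes was 0.54 in WT and 0.73 in GKO over all UMIs, and -0.48 and -0.22 outside hormone genes. The count of receptor and class pairs past the fold was 2 of 27, and 4 of 27 without barcodes rich in a second hormone, where Adra2a in α (-0.50, 20 and 19 UMIs) and Sstr2 in γ barcodes (0.59, 23 and 32 UMIs) joined Gcgr and Gpr119 in δ barcodes. With a leading hormone of at least 25% it was 3 of 27, and Adra2a in α barcodes had a ratio of 1.43 on 4 and 16 UMIs. Gpr119 in δ barcodes then had a ratio of 1.89 on 1 and 3 UMIs. Somatostatin made up 18.53% of UMIs in WT and 18.55% in GKO δ barcodes, under that limit. Subtracting the nonendocrine CPM gave 3 of 22 and took Adra2a in β barcodes from 0.01 to -0.78, while nonendocrine Adra2a itself differed between libraries. TMM factors moved Ffar1 in β barcodes to 0.22 and Sstr3 to -0.31, with unchanged directions. Of the members' genotype ratios, 320 moved by less than their counting interval and 18 by more under the alternatives. The highest class remained in 16 to 18 of 18 pairs of receptor and library, and by shares in 14 (without thinning) to 18. Thinning to 20000 UMIs, the subset with every hormone under 1% of UMIs, and leaving out the stellate-led barcodes, those with Xcr1 or Clec9a, or second-hormone barcodes from the insulin bins were chosen after seeing the data. Counts limit pairs with under 50 UMIs in a library: in the hormone classes these were Glp1r, Gcgr and Sstr2 outside their highest class, Ffar1 and Gpr119 in δ, and Adra2a in α and γ barcodes.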

Other observations

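In WT, 5 barcodes had Ghrl at 10% or more of their UMIs, with 41501 of the library's 43634 Ghrl UMIs, and GKO had none. These 5 barcodes held 11 UMIs of Ffar4 in 3 barcodes, 8 of the UMIs in 1 barcode, which may be the ductal-led barcode of 8 UMIs. The 5 barcodes also held 2 UMIs of Gipr and 1 of Sstr3, and none of Glp1r, Gcgr, Ffar1, Gpr119, Adra2a or Sstr2. Their number limits any level to a few UMIs.

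Of the nonendocrine barcodes that no marker list led when the lists were taken singly, 19 in WT and 69 in GKO had an Adra2a UMI. Rgs5 was present in 18 and 68 of them, Notch3 in 18 and 66, and Myl9 in 18 and 68. Tagln was present in 16 and 66, Pdgfrb in 16 and 64, and Acta2 in 13 and 63. Col3a1, a gene of the activated stellate list, was present in 16 and 66. Counts for barcodes without an Adra2a UMI are not given, so these counts do not show that the genes go with Adra2a.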
